A study of Homo sapiens with 8 samples.

Results

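The Hippo pathway and the genes driven by its effectors YAP and TAZ were followed in LNCaP cells, an androgen-responsive line established from a human prostate carcinoma metastasis, after addition of asporin (ASPN), a secreted protein of the extracellular matrix. The members were 39 named genes, 22 reported YAP/TAZ target genes and 17 pathway components, read as rows of a table of 36474 genes. A member was kept when it had 10 or more counts in at least 2 of the 8 libraries, which left 34 members, 17 of the 22 target genes and 17 of the 17 pathway components. Cells were starved without serum or calcium for 6 to 12 h and received recombinant human ASPN at 100 ng/mL. Poly(A) RNA was sequenced at 0 h (2 libraries), 12 h (3 libraries) and 24 h (3 libraries), all from starved LNCaP cells for which the labels give no genetic change. No library kept for 12 or 24 h without ASPN was analysed here, so time in the starvation medium and time with ASPN cannot be told apart. Both comparisons with 0 h share the same 2 libraries, and all libraries came from 1 cell line, so p-values measure the spread between cultures of that line.

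In the Hippo pathway the kinases MST1 and MST2 (genes STK4 and STK3), held by the scaffold SAV1, activate the kinases LATS1 and LATS2 and their partners MOB1A and MOB1B. LATS kinases phosphorylate YAP and TAZ (genes YAP1 and WWTR1), which keeps these coactivators in the cytoplasm. When they reach the nucleus they bind the DNA-binding TEAD factors and switch on genes such as CCN1, CCN2 and ANKRD1. Much of this control acts on protein phosphorylation and location, which transcript counts do not measure.

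Totals ran from 73406825 to 96962135 counts per library. Levels are given in CPM, in which counts are divided by the TMM-scaled total of their library, changes as log2 ratios with their standard error (SE). A gene passed the test at an adjusted p of at most 0.05 in edgeR's quasi-likelihood test over 21071 genes, and was called when its fold change was also at least 1.5. Luminal prostate markers had 9 of 9 genes present, with summed levels of 4725 to 4844 CPM at 0 h, 5285 to 5327 at 12 h and 5277 to 5469 at 24 h. Stromal markers summed to 27.7 to 32.5 CPM over all libraries (8 of 9 genes with a row) and basal markers to 0.068 to 0.248 CPM (3 of 4 with a row). ASPN itself had at most 3 counts in any library. The number of genes past the test depended on the library called 0 h replicate 1. Without it, 624 in place of 2443 genes passed at 12 h and 1597 in place of 3437 at 24 h.

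Pathway components were present throughout. Levels were compared between genes per kilobase of exon, with length taken over all annotated exons of a gene. Exons that these cells do not use lower a gene's value on this scale, so comparisons between genes are approximate. YAP1 had the highest mean level of all kept members at 20.8 CPM per kb over the 8 libraries. Its paralogue WWTR1, which encodes TAZ, stood at 0.075 CPM per kb. The ratio of the levels of YAP1 to WWTR1 ran from 182 to 422 over the libraries, so nearly all YAP/TAZ transcript in these cells was YAP1. Both LATS kinases, both MST kinases, SAV1 and both MOB1 genes were detected at 2.06 to 7.96 CPM per kb. The upstream regulators NF2 (merlin) and WWC1 (KIBRA) stood at 12.2 and 8.47 CPM per kb and VGLL4, a cofactor that competes with YAP for TEADs, at 8.26. Of the angiomotins, scaffolds that bind YAP, AMOT stood at 2.54 CPM per kb and AMOTL1 at 0.11.

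**Figure D1:**
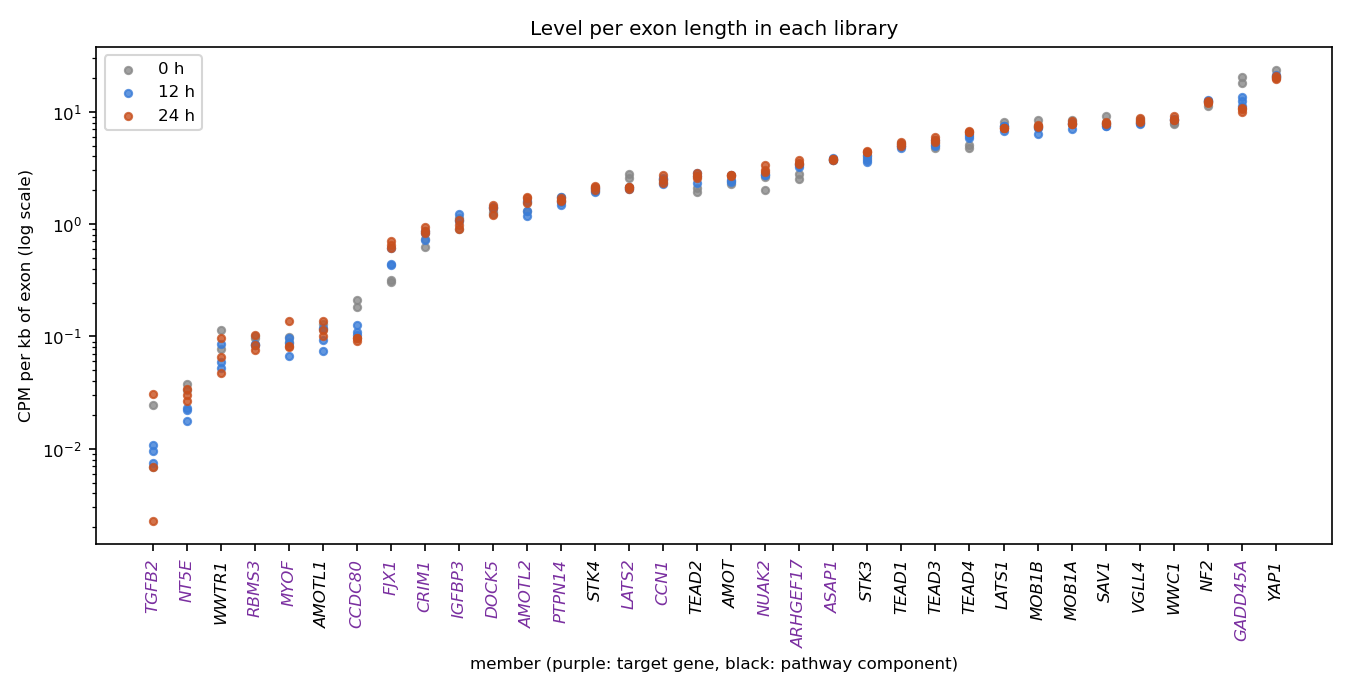
Level of each kept member per kilobase of exon (vertical axis, CPM per kb, log scale) in each of the 8 libraries (points, coloured by time), ordered by the mean over libraries. Most components lie above 2 CPM per kb, whereas target genes spread from TGFB2 at 0.012 to GADD45A at 13.4.

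Target genes were spread more widely. GADD45A, a growth arrest and DNA damage inducible gene, had the highest mean at 13.4 CPM per kb, followed by ASAP1 (an Arf GTPase-activating protein) at 3.76, ARHGEF17 (a guanine nucleotide exchange factor) at 3.24 and NUAK2 (a stress-responsive kinase) at 2.78. CCN1, a secreted matricellular protein and a common readout of YAP activity, stood at 2.48. MYOF, RBMS3, NT5E and TGFB2 were between 0.012 and 0.093 CPM per kb. Of the exon bases of TGFB2, 34.2% are shared with the overlapping transcript TGFB2-OT1, so its counts cannot be assigned with certainty.

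Several classical targets were at or near 0 counts. CCN2, the other matricellular readout of YAP, had 5 and 0 counts in the 0 h libraries, 0, 2 and 0 at 12 h and 0, 0 and 0 at 24 h. AXL, a receptor tyrosine kinase, had 11 and 0 counts at 0 h, 2, 2 and 3 at 12 h and 1, 2 and 1 at 24 h. F3, which encodes tissue factor, had between 1 and 3 counts in every library. These 3 genes fell under the count minimum and were not tested. With 3 counts taken as the upper limit of an observed 0, a count of 0 stands for a level of at most 0.031 to 0.041 CPM, depending on the library. This limit covers counting error only. For ANKRD1 and FOXF2 no row carried the name, and they were not analysed here.

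The stretches of DNA in front of 3 target genes show what the motif bound by TEAD factors looks like at genes that differed in level here. CCN2 was nearly uncounted, ANKRD1 had no row, and NUAK2 was counted in every library. GGAATG is a core of the TEAD recognition sequence and CATTCC is the same motif read on the other strand. Shown 5′ to 3′ on the gene's strand are the 250 bases before the RefSeq transcription start (GRCh38.p14), with both forms in capitals. CCN2 lies at chr6:131951373-131951622 (minus strand), ANKRD1 at chr10:90921088-90921337 (minus strand) and NUAK2 at chr1:205321746-205321995 (minus strand), and no annotated exon overlaps these windows.
CCN2: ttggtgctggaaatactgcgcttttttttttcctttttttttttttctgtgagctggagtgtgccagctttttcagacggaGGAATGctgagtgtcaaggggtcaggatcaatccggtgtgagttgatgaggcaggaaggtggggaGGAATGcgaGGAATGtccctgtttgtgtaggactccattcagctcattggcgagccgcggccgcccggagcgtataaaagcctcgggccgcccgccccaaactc
ANKRD1: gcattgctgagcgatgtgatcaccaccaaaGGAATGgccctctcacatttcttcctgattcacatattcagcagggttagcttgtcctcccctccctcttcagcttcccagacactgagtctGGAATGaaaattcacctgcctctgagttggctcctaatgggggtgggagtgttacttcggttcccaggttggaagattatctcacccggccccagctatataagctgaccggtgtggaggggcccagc
NUAK2: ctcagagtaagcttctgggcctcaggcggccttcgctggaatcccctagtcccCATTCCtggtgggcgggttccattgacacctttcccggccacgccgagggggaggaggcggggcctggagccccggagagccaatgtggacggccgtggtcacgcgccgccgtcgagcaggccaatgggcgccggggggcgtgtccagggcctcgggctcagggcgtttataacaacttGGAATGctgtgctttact
CCN2 held 3 matches, beginning 169, 104 and 95 bases before the start, ANKRD1 held 2 (220 and 128 bases before) and NUAK2 held 2 (197 and 18 bases before).

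The set of RefSeq starts used here held 16 of the 22 target genes and 14 of the 17 components. That set had no entry for the targets ARHGEF17, ASAP1, CCN1, CRIM1, DOCK5 and GADD45A and the components STK3, TEAD1 and TEAD4. Of 18 target gene windows, 8 held the motif on either strand (44.4%), against 1 of 23 component windows (4.35%, YAP1) and 4175 of all 35116 windows (11.9%). The 8 target genes were AMOTL2, ANKRD1, AXL, CCN2, FOXF2, NUAK2, PTPN14 and TGFB2. Of these, 4 were tested and NUAK2 alone passed the test in any comparison. CCDC80, FJX1 and LATS2 also passed, and their windows held no match. ARHGEF17, CRIM1 and GADD45A passed too but had no window to search. The matched letters describe the DNA and do not show that a factor binds there.

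Among target genes at 12 h, 4 of 17 tested passed, 1 higher (ARHGEF17) and 3 lower (GADD45A, CCDC80 and LATS2). Over all genes 11.6% passed, 4.85% higher and 6.75% lower. The 2 called members, GADD45A and CCDC80, were both lower, where 1.05% of all genes were called. Without 0 h replicate 1, GADD45A was the 1 target gene that passed and none was called. The median log2 change of the 17 target genes was −0.06 against −0.00069 over all genes. CCN1 was among the 13 that did not pass.

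At 24 h, 7 of 17 target genes passed. ARHGEF17, NUAK2, FJX1 and CRIM1 were higher and GADD45A, CCDC80 and LATS2 were lower. The share over all genes was 16.3%, with 7.82% higher and 8.49% lower. GADD45A, CCDC80 and FJX1 were the 3 called, against 2.45% of all genes. The median change of the list was 0.02 on the log2 scale, against −0.0031 over all genes, so the members moved in both directions about a median near that of all genes. In bulk RNA, fewer expressing cells and less transcript per cell cannot be told apart for any of these genes.

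**Figure D2:**
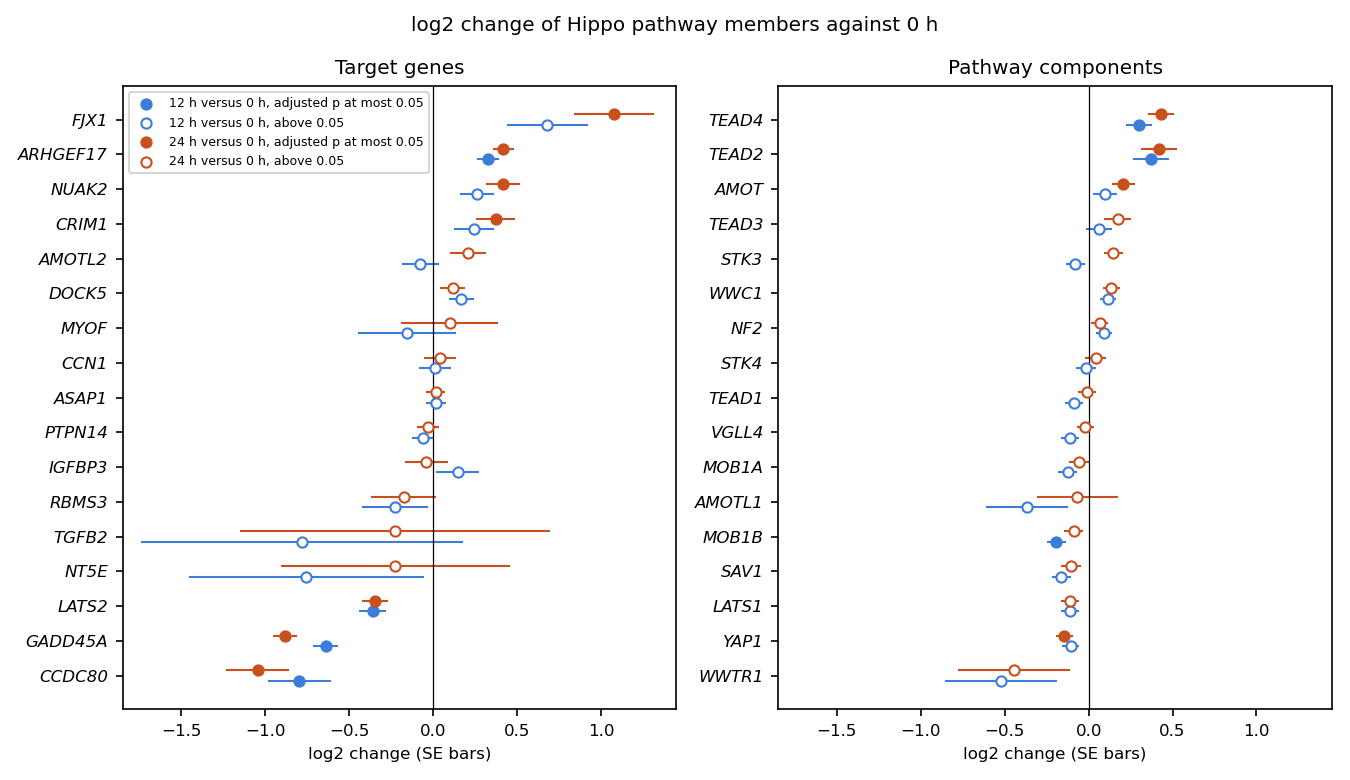
Change of each kept member from 0 h to 12 h (blue) and to 24 h (red) on the log2 scale (horizontal axis), with bars of 1 SE and filled points where the adjusted p was at most 0.05. GADD45A, CCDC80 and LATS2 sit left of 0 and FJX1, ARHGEF17, NUAK2, CRIM1, TEAD4, TEAD2 and AMOT right of it, and most components lie within 0.2 of 0.

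GADD45A (ENSG00000116717.13, GRCh38 chromosome 1, 67685201 to 67688334), whose product restrains the cell cycle after stress, had the smallest adjusted p of any member. It stood at 39.5 and 34.6 CPM in the 0 h libraries, 26.0, 21.5 and 23.9 at 12 h and 19.0, 20.9 and 20.6 at 24 h. The 3 groups did not overlap and each later group lay lower. The log2 change was −0.64 (SE 0.07, adjusted p 3.51e-07 by edgeR) at 12 h, 1.56-fold lower, and −0.88 (SE 0.07, adjusted p 1.95e-10 by edgeR) at 24 h, 1.84-fold lower. Both passed in every alternative, with adjusted p of at most 0.000507 at 12 h and 5.85e-07 at 24 h. Its change at 12 h fell under 1.5-fold without 0 h replicate 1 (−0.54) or 12 h replicate 2 (−0.57).

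From 12 h to 24 h GADD45A fell by a further 0.24 on the log2 scale (SE 0.07, adjusted p 0.0465 by edgeR) and was the 1 target gene past the test in that comparison. That step was lost on leaving out any of 5 libraries: 12 h replicates 1 and 3 (adjusted p 0.184 and 0.141) and 24 h replicates 1, 2 and 3 (0.262, 0.0916 and 0.129). Over all alternatives its adjusted p ran from 0.00533 to 0.262.

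CCDC80 (ENSG00000091986.16, chromosome 3, 112596797 to 112649530) encodes a secreted matrix-associated protein. Its level was 2.75 and 2.39 CPM at 0 h, 1.65, 1.36 and 1.44 at 12 h and 1.26, 1.27 and 1.20 at 24 h. The 0 h libraries stood above all others. The gene fell by 0.80 on the log2 scale (SE 0.19, adjusted p 0.00402 by edgeR) at 12 h and by 1.05 (SE 0.19, adjusted p 0.000122) at 24 h, a 2.06-fold lower level. At 24 h it passed in every alternative (adjusted p at most 0.0124). At 12 h it did not pass without 0 h replicate 1 (adjusted p 0.14, range over alternatives 0.00298 to 0.14).

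LATS2 (ENSG00000150457.9, chromosome 13, 20973036 to 21061586) is both a kinase of the pathway and a YAP/TAZ target in a feedback loop, and was listed here as a target. It stood at 15.8 and 14.3 CPM at 0 h, 11.7, 11.5 and 12.0 at 12 h and 11.9, 11.6 and 12.0 at 24 h. Both 0 h libraries were above the 6 later ones, which lay close together. It fell by 0.36 (SE 0.08, adjusted p 0.00208 by edgeR) at 12 h and by 0.35 (SE 0.08, adjusted p 0.00182) at 24 h on the log2 scale. Leaving out 0 h replicate 1 left both changes above the threshold (adjusted p 0.125 and 0.0885), and over all alternatives the adjusted p ran from 0.000656 to 0.125 at 12 h and from 0.000783 to 0.0885 at 24 h.

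ARHGEF17 (ENSG00000110237.5, chromosome 11, 73308276 to 73369388) was counted at 24.9 and 27.7 CPM at 0 h, 31.9, 33.8 and 33.3 at 12 h and 36.7, 35.0 and 33.7 at 24 h. Every later library lay above both at 0 h. The gene rose by 0.33 (SE 0.06, adjusted p 0.000525 by edgeR) at 12 h and 0.42 (SE 0.06, adjusted p 8.39e-06) at 24 h on the log2 scale. The later change passed in every alternative (adjusted p at most 0.00338), and the earlier did not pass without 0 h replicate 1 (adjusted p 0.0647, range 1.23e-05 to 0.0647). An antisense transcript, ARHGEF17-AS1, overlaps 9.87% of its exon bases.

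FJX1 (ENSG00000179431.7, chromosome 11, 35618460 to 35620865), related to the fly gene four-jointed that acts on the Fat and Dachsous branch upstream of Hippo, showed the largest increase among tested target genes. Its counts were 67 and 53 at 0 h, 81, 95 and 128 at 12 h and 142, 163 and 108 at 24 h. In CPM these were 0.761 and 0.729 at 0 h, 1.05, 1.07 and 1.47 at 12 h and 1.56, 1.69 and 1.47 at 24 h. The 0 h libraries lay below all others, and the highest 12 h library lay just under the lowest at 24 h. The gene rose 2.11-fold at 24 h (log2 change 1.08, SE 0.24, adjusted p 0.00139 by edgeR) and passed in every alternative (adjusted p 0.000566 to 0.0272). Its change of 0.68 at 12 h had an adjusted p of 0.064.

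NUAK2 (ENSG00000163545.11, chromosome 1, 205302063 to 205321745), the gene with 2 motif matches in front of its start, encodes a kinase that feeds back on LATS. It stood at 6.87 and 8.89 CPM at 0 h, 9.54, 9.33 and 9.32 at 12 h and 10.3, 9.81 and 11.4 at 24 h. The 0 h libraries were the lowest and lay farther apart than the 12 h libraries. At 24 h it rose by 0.42 on the log2 scale (SE 0.10, adjusted p 0.00355 by edgeR). Without 0 h replicate 1 the adjusted p was 0.274 (range over alternatives 0.000299 to 0.274).

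CRIM1 (ENSG00000150938.10, chromosome 2, 36355778 to 36551135), a membrane protein that binds bone morphogenetic proteins, had 5.32 and 4.58 CPM at 0 h, 6.11, 5.22 and 6.31 at 12 h and 6.09, 6.31 and 6.90 at 24 h. The 24 h libraries lay above both at 0 h, and the 12 h libraries overlapped them. It rose by 0.37 on the log2 scale at 24 h (SE 0.12, adjusted p 0.0252 by edgeR). The adjusted p was 0.226 without the 0 h library that has no replicate number and 0.108 without 24 h replicate 3 (range 0.0171 to 0.226).

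The remaining 10 tested target genes passed in no comparison, with log2 changes between −0.78 and 0.56. CCN1 (ENSG00000142871.18, chromosome 1, 85580761 to 85584589) stood at 8.84 and 9.24 CPM at 0 h, 8.49, 9.27 and 9.54 at 12 h and 8.52, 10.1 and 9.22 at 24 h. Its groups overlapped, and the 95% interval of its log2 change was −0.18 to 0.20 at 12 h and −0.15 to 0.23 at 24 h. ASAP1 varied least, between 30.8 and 31.8 CPM, with an interval of −0.098 to 0.13 at 24 h.

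AMOTL2, an angiomotin and feedback target, stood at 8.39 and 10.3 CPM at 0 h, 8.47, 7.67 and 10.4 at 12 h and 9.90, 11.3 and 11.1 at 24 h. The time points overlapped, and the log2 change at 24 h was 0.21 (SE 0.11, adjusted p 0.215 by edgeR). PTPN14, a phosphatase that restrains YAP, had an interval of −0.16 to 0.10 at 24 h. DOCK5, IGFBP3, MYOF, NT5E, RBMS3 and TGFB2 also did not pass, and TGFB2 with 1 to 17 counts and NT5E with 7 to 15 counts per library were thinly counted.

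**Figure D3:**
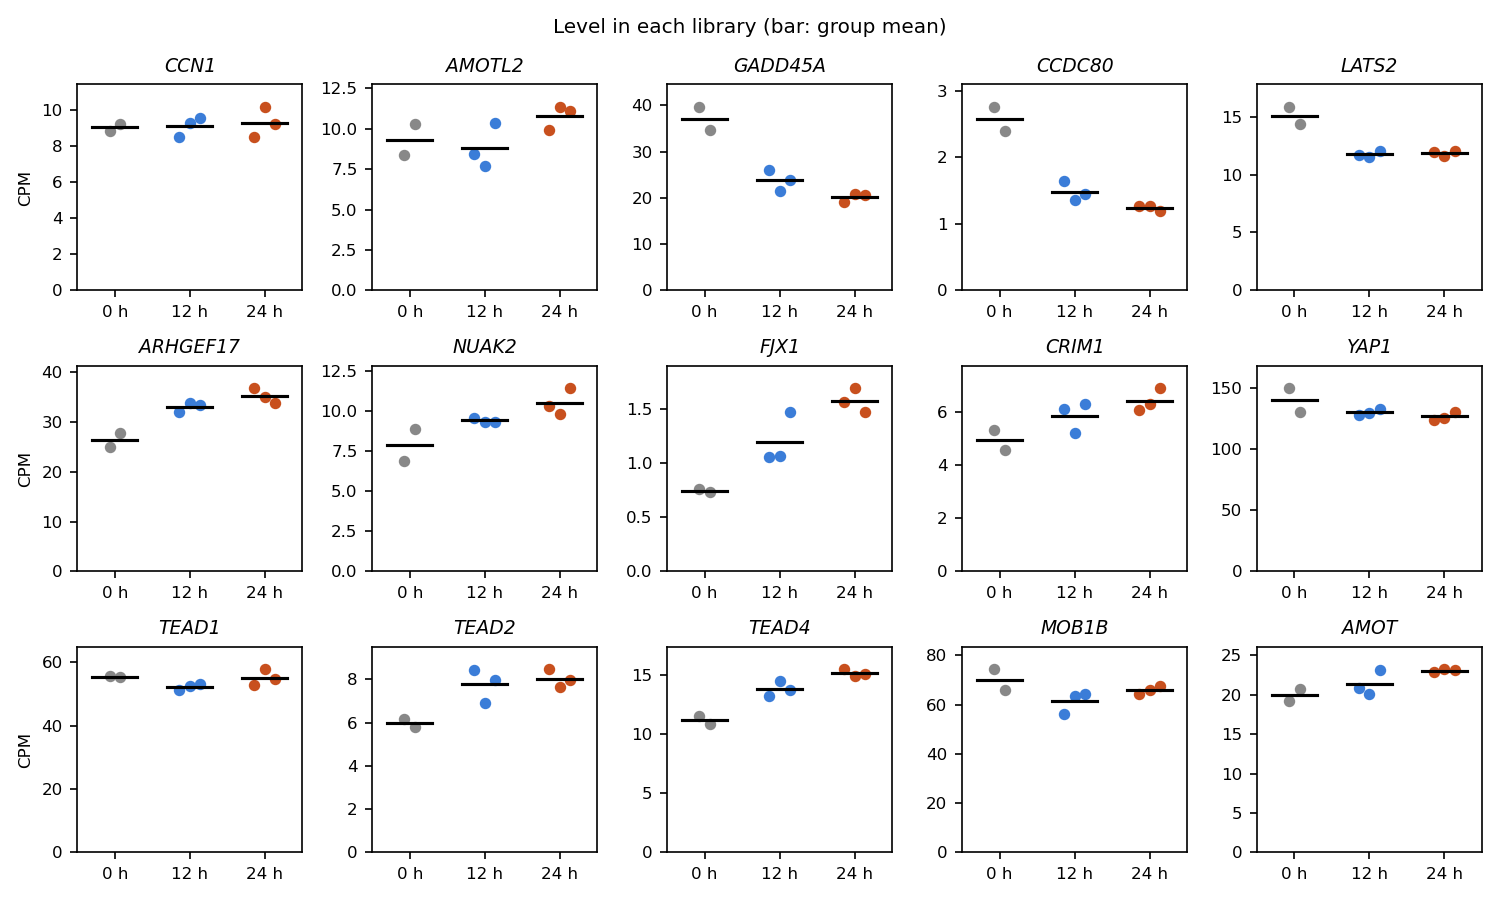
Level in each library (points, CPM, each axis starting at 0) of 9 target genes and 6 pathway components at 0 h (grey, 2 libraries), 12 h (blue, 3) and 24 h (red, 3), with the group mean as a bar. CCN1 stays near 9 CPM at all times, GADD45A drops from 37.1 to 20.1 CPM and TEAD4 climbs from 11.2 to 15.1 CPM between the group means at 0 h and 24 h.

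Among pathway components, 3 of 17 passed at 12 h (TEAD2 and TEAD4 higher, MOB1B lower) and 4 of 17 at 24 h (TEAD2, TEAD4 and AMOT higher, YAP1 lower). The corresponding shares over all genes were 11.6% and 16.3%. None was called at either time. The median log2 change of the components was −0.09 at 12 h and −0.01 at 24 h. Leaving out 0 h replicate 1 left 0 components past the test at 12 h and 2 at 24 h, and leaving out 12 h replicate 1 left 1 at 12 h. At 24 h, leaving out 24 h replicate 1, 2 or 3 also left 2 components.

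TEAD4 (ENSG00000197905.10, chromosome 12, 2959330 to 3040676), a DNA-binding partner of YAP, had the smallest adjusted p of the components. Its level was 11.6 and 10.9 CPM at 0 h, 13.2, 14.5 and 13.7 at 12 h and 15.5, 14.9 and 15.0 at 24 h. The groups followed the order of time without overlap. TEAD4 rose by 0.30 (SE 0.08, adjusted p 0.0103 by edgeR) at 12 h and by 0.43 (SE 0.08, adjusted p 0.00014) at 24 h on the log2 scale. At 24 h it passed in every alternative (adjusted p 6.96e-06 to 0.00491). At 12 h it did not pass without 0 h replicate 1 (adjusted p 0.0574) or the other 0 h library (0.0684), the range being 0.00388 to 0.0684.

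TEAD2 (ENSG00000074219.14, chromosome 19, 49340595 to 49362457) stood at 6.19 and 5.79 CPM at 0 h, 8.46, 6.89 and 7.97 at 12 h and 8.46, 7.64 and 7.96 at 24 h. All later libraries were above both at 0 h. It rose by 0.37 (SE 0.11, adjusted p 0.018 by edgeR) and 0.42 (SE 0.11, adjusted p 0.00497) on the log2 scale at 12 h and 24 h. At 12 h it did not pass without either 0 h library (0.105 without replicate 1 and 0.101 without the other) and without 12 h replicate 1 or 3 (0.0684 and 0.0536). At 24 h it did not pass without the unnumbered 0 h library (0.0533, range 0.00139 to 0.0533). The gene CD37 on the other strand overlaps 10.7% of the exon bases of TEAD2, and whether counting used strand was not stated.

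TEAD1 and TEAD3 passed in no comparison. TEAD1 held between 51.1 and 57.8 CPM in the 8 libraries, with a log2 change of −0.01 at 24 h (95% interval −0.11 to 0.09). TEAD3 held between 14.5 and 18.2 CPM.

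**Figure D4:**
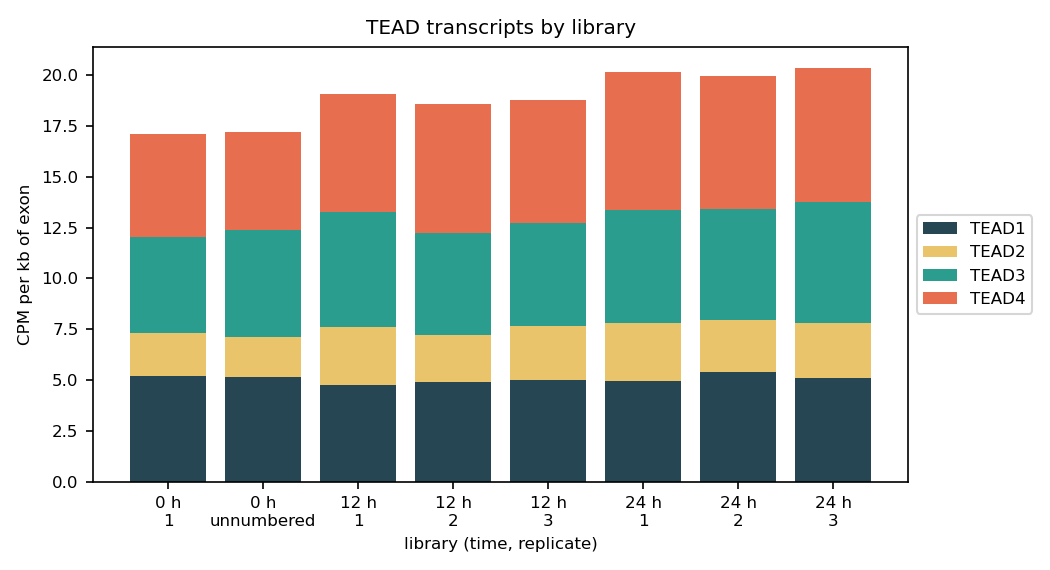
Stacked levels of TEAD1 to TEAD4 (vertical axis, CPM per kb of exon) in each of the 8 libraries (bars). The sum stands near 17.2 in both 0 h libraries and between 19.9 and 20.4 in the 24 h libraries, with TEAD4 taking the largest part of the difference between the mean levels at 0 h and 24 h.

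Summed per kilobase of exon, the 4 TEAD genes stood at 17.16 ± 0.040 CPM per kb at 0 h (SD, n = 2), 18.8 ± 0.23 at 12 h (SD, n = 3) and 20.2 ± 0.21 at 24 h (SD, n = 3). TEAD1 made up 30.3% ± 0.29 of that sum at 0 h, 26.0% ± 0.81 at 12 h and 25.6% ± 1.3 at 24 h. TEAD4 made up 28.7% ± 1.3, 32.3% ± 1.9 and 33.0% ± 0.64 at the same times. TEAD3 made up 29.3% ± 2.2, 27.9% ± 1.5 and 28.1% ± 1.1. TEAD1 had the largest mean share at 0 h, but TEAD3 exceeded it in the unnumbered 0 h library (30.8% against 30.1%). At 12 h and 24 h TEAD4 had the largest mean share and TEAD3 the next. The ratio of TEAD1 to TEAD4 was 1.05 ± 0.037 at 0 h, 0.807 ± 0.031 at 12 h and 0.775 ± 0.049 at 24 h, and the 0 h libraries did not overlap the others. Sums, shares and ratios are given as descriptions. An exact permutation test of 2 against 3 libraries, or of 3 against 3, cannot give a two-sided p under 0.1.

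YAP1 (ENSG00000137693.14, chromosome 11, 102110447 to 102233424) stood at 149.8 and 130.5 CPM at 0 h, 128, 129 and 133 at 12 h and 124, 125 and 131 at 24 h. The 24 h values reached that of the lower 0 h library, so the groups overlapped. Its log2 change of −0.15 at 24 h (SE 0.05) had an adjusted p of 0.047 by edgeR. Without 0 h replicate 1, the library at 149.8 CPM, the change was −0.05 with an adjusted p of 0.735. Over the alternatives the adjusted p ran from 0.00209 to 0.735, and it was above 0.05 in 7 of 13, including RLE scaling (0.051) and no low-count filter (0.0536).

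WWTR1 stood at 0.647 and 0.949 CPM at 0 h and between 0.393 and 0.813 CPM in the 6 later libraries. Its groups overlapped and it passed in no comparison. The antisense gene WWTR1-AS1 overlaps 9.05% of its exon bases.

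Of the core kinases and their partners, MOB1B, which binds and activates LATS, stood at 74.3 and 65.7 CPM at 0 h, 56.1, 63.5 and 64.3 at 12 h and 64.2, 65.7 and 67.6 at 24 h. The 12 h libraries lay below both at 0 h and overlapped those at 24 h. It fell by 0.19 on the log2 scale at 12 h (SE 0.06, adjusted p 0.0278 by edgeR). It did not pass without 0 h replicate 1 (adjusted p 0.568), 12 h replicate 1 (0.147) or 24 h replicate 2 (0.057), and in the fit to the compared times alone (0.0769). The lowest adjusted p over the alternatives was 0.00721.

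STK3, the MST2 kinase, was the 1 component past the test between 12 h and 24 h. It had 52.1 and 48.4 CPM at 0 h, 45.1, 51.0 and 46.4 at 12 h and 55.8, 55.1 and 56.0 at 24 h. The 24 h libraries were the highest. It rose by 0.23 from 12 h to 24 h on the log2 scale (SE 0.05, adjusted p 0.00877 by edgeR). The step was lost without 12 h replicate 3 (adjusted p 0.0735) or 24 h replicate 1, 2 or 3 (0.0594, 0.0571 and 0.0614), with a range of 0.00123 to 0.0735. In this comparison 2.72% of all genes passed, 1.12% higher and 1.61% lower, and 0.18% were called, against 1 of 17 components and 1 of 17 target genes passed and no member called.

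AMOT stood at 19.2 and 20.7 CPM at 0 h, 20.9, 20.1 and 23.1 at 12 h and 22.9, 23.2 and 23.1 at 24 h. The 24 h libraries lay above those at 0 h. It rose by 0.21 on the log2 scale at 24 h (SE 0.07, adjusted p 0.0395 by edgeR). The adjusted p was 0.389 without 0 h replicate 1 and 0.0868, 0.103 and 0.0944 without 24 h replicate 1, 2 and 3 (lowest over the alternatives 0.0196).

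The other 11 components passed in no comparison, with log2 changes between −0.52 and 0.30. LATS1, the paralogue of LATS2, stood at 68.4 and 63.8 CPM at 0 h, 57.7, 63.0 and 63.2 at 12 h and 61.1, 61.4 and 61.2 at 24 h, with a log2 change of −0.11 (SE 0.05) at each later time. The ratio of LATS1 to LATS2 per kilobase was 2.90 ± 0.059 at 0 h (SD, n = 2), 3.45 ± 0.18 at 12 h (SD, n = 3) and 3.41 ± 0.070 at 24 h (SD, n = 3), and the 0 h libraries lay below all others. The ratio of STK3 to STK4 ran from 1.79 to 2.20 and that of MOB1A to MOB1B from 1.01 to 1.10 over the 8 libraries. NF2 had a 95% interval of −0.03 to 0.16 at 24 h and VGLL4 one of −0.12 to 0.08. WWC1 had a log2 change of 0.14 at 24 h with an adjusted p of 0.0552 by edgeR, and passed in 5 of 13 alternatives (DESeq2 0.0261, lowest). Exons of SAV1 and VGLL4 overlap ATL1 (31.9%) and ATG7 (23.8%) on the other strand.

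Replicate spread, before allowing for level, differed between the lists. The median biological coefficient of variation was 7.70% over target genes and 4.40% over components, against 7.69% over all tested genes. The highest was 49.7% among the target genes (TGFB2) and 22.4% among the components (WWTR1). The values fitted at the levels of these thinly counted genes were 44.5% and 21.1%. Of the target genes, 8 of 17 lay above the spread fitted at their level, as did 7 of 17 components and 8606 of all 21071 genes. By that measure the lists were alike.

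Further genes of the pathway, on a list of 49 with 44 tested, also moved both ways. At 12 h, 2 rose (MINK1 and PPP2R1A) and 3 fell (STK38L, SIKE1 and STRN). At 24 h, 4 rose (MINK1, RASSF2, PPP2R1A and LIMD1) and 5 fell (AJUBA, SPTAN1, STK38L, SIKE1 and TAOK1). From 12 h to 24 h, AJUBA and SPTAN1 fell. These were 11.4%, 20.5% and 4.55% of the tested genes of the list, against 11.6%, 16.3% and 2.72% of all genes, which is near the background. STRN, PPP2R1A, RASSF2, LIMD1 and TAOK1 were named after their values were seen. The list's median log2 change was 0.02, 0.0028 and 0.0066 in the 3 comparisons. Leaving out 0 h replicate 1 left 1 past the test at 12 h and 3 at 24 h. The number at 12 h was 11 without the unnumbered 0 h library, 8 without 12 h replicate 2 and 8 with DESeq2, and the number at 24 h was 16 without 12 h replicate 1 and 5 without 24 h replicate 3.

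AJUBA, a LIM protein that binds and restrains LATS, stood at 144 and 137 CPM at 0 h, 129, 126 and 131 at 12 h and 104, 113 and 114 at 24 h. Its 3 groups did not overlap. It fell by 0.34 at 24 h against 0 h (SE 0.05, adjusted p 2.72e-06 by edgeR) and by 0.22 between 12 h and 24 h (SE 0.04, adjusted p 0.00257), the latter lost without 24 h replicate 1 (0.0637). SPTAN1, a spectrin of the membrane skeleton, fell by 0.25 at 24 h (adjusted p 0.000474 by edgeR) and by 0.22 after 12 h (adjusted p 0.00455, lost without 12 h replicate 3 at 0.088 and 24 h replicate 3 at 0.0768). MINK1, a kinase of the MAP4K group that acts beside MST1 and MST2, stood at 96.3 and 98.5 CPM at 0 h and between 111 and 119.7 CPM later, and rose by 0.23 and 0.28 at 12 h and 24 h (adjusted p 0.00114 and 4.12e-05 by edgeR). STK38L (NDR2, a kinase related to LATS) and SIKE1 (a subunit of the phosphatase complex that acts on MST kinases) fell by 0.35 and 0.28 at 12 h (adjusted p 0.000168 and 0.00106), and neither passed at 12 h without 0 h replicate 1 (0.0906 and 0.133) or at 24 h without it (0.507 and 0.305). SIKE1 at 24 h also did not pass without 24 h replicate 1 (0.0824).

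A further list of 42 reported YAP/TAZ targets, of which 34 were tested, changed in either direction. At 12 h, 4 rose (TK1, RRM2, FSCN1 and STMN1) and 5 fell (ARHGAP29, THBS1, DAB2, MARCKS and TNS1). At 24 h, 6 rose and 7 fell. From 12 h to 24 h, 2 rose (TSPAN3 and ARHGAP29) and 6 fell. The 6 were the mitotic genes CENPF and CDC20, the microtubule regulator STMN1, and SHCBP1, BIRC5 and TOP2A. Those past the test were 26.5%, 38.2% and 23.5% of the tested genes of the list, against 11.6%, 16.3% and 2.72% of all genes. On the list 2 genes were called at 12 h and 3 at 24 h, all lower, where 1.05% and 2.45% of all genes were called. DAB2 and TNS1 were called at both times and THBS1 at 24 h. The log2 changes at 12 h and 24 h were −1.35 and −1.38 for DAB2 (SE 0.41 each) and −0.61 and −0.69 for TNS1 (SE 0.19 each). RRM2, FSCN1, DAB2, MARCKS, TNS1, SHCBP1, BIRC5 and TOP2A were named after their values were seen. The median log2 change was 0.03, −0.04 and −0.02 in the 3 comparisons. Without 0 h replicate 1, 4 passed at 12 h and 7 at 24 h, and from 12 h to 24 h the number was 4, 3, 3 and 2 without 12 h replicate 2, 12 h replicate 3, 24 h replicate 1 and 24 h replicate 2.

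THBS1, a secreted matrix glycoprotein, stood at 16.7 and 15.8 CPM at 0 h, 10.3, 9.69 and 13.5 at 12 h and 9.37, 11.1 and 10.3 at 24 h. Both 0 h libraries were above all later ones. It fell by 0.54 at 12 h (SE 0.10, adjusted p 0.00042 by edgeR) and by 0.66 at 24 h (SE 0.10, adjusted p 1.36e-05), 1.59-fold lower. ARHGAP29, a GTPase-activating protein, stood at 104 and 90.6 CPM at 0 h, 68.1, 74.6 and 72.2 at 12 h and 79.1, 84.5 and 80.7 at 24 h. It fell by 0.44 at 12 h (adjusted p 1.42e-06 by edgeR) and rose by 0.19 from 12 h to 24 h (adjusted p 0.035, up to 0.274 on leaving out 1 of 5 libraries). Its decrease of 0.26 at 24 h did not pass without 0 h replicate 1 (0.131).

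The longer target list also holds genes of DNA synthesis and mitosis. TK1, which makes thymidine monophosphate for DNA synthesis, rose by 0.50 at 12 h (adjusted p 1.91e-06 by edgeR) and 0.41 at 24 h (adjusted p 1.36e-05). TSPAN3, a tetraspanin, rose by 0.28 at 24 h (adjusted p 3.11e-05). The mitotic genes CENPF and CDC20 and the microtubule regulator STMN1 fell by 0.32, 0.24 and 0.24 from 12 h to 24 h (adjusted p 0.000106, 0.00389 and 0.00205 by edgeR), and CDC20 did not pass without 24 h replicate 2 (0.0571). The increase of STMN1 at 12 h did not pass without 0 h replicate 1 (0.148), the unnumbered 0 h library (0.0587) or 12 h replicate 2 (0.11).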

How the data were processed

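LNCaP RNA was sequenced as paired 150-base mRNA libraries, 2 at 0 h and 3 each at 12 h and 24 h. The authors trimmed reads with Cutadapt 4.5, aligned them with STAR 2.7.11a to GRCh38.p13 and counted reads per gene with featureCounts 2.0.2, and the deposited values are these raw counts. They left out a 0 h library for quality. Strand, pair and multi-mapping options were not given in the sources used here, so overlapping genes can share reads. One 0 h column carries a number that no 0 h label has and was used without a replicate number.

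Genes were tested with the robust quasi-likelihood functions of edgeR 4.0.16 under R 4.3.3 (TMM, filterByExpr, 1 coefficient per time point over 8 libraries, Benjamini-Hochberg adjustment). Exon lengths and overlaps came from GENCODE 44 and starts from RefSeq (GRCh38.p14). Of 36474 genes, 30996 had the same versioned identifier in GENCODE 44, all with equal coordinates. Lengths were matched by identifier without its version, for 36397 genes. The statistics were checked on simulated counts. Named were all members, and of 2 further lists up to 3 genes with the smallest adjusted p per comparison. The members and lists were chosen with earlier results of these data known. Alternatives were RLE scaling, no low-count filter, DESeq2 1.42.0, the compared times alone, an adjusted p of 0.01, each library left out, the replicate number as a block and, chosen after seeing the data, protein-coding genes alone. Replicates differed by more than sampling noise (chi-square per degree of freedom 5.32 to 15.2), so each library was counted once.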

Additional observations from a re-analysis of the deposited data

How the results depend on the processing

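RLE scaling, DESeq2, fits to the compared times alone and protein-coding genes alone kept the number of target genes and of components past the test within 1.5 times the reported number in each comparison. No low-count filter did so too, except between 24 h and 12 h, where 2 target genes passed (AMOTL2 besides GADD45A). At an adjusted p of 0.01, 1292 genes passed at 12 h, 2086 at 24 h and 230 between 24 h and 12 h. At that threshold 0 components passed at 12 h, 2 components at 24 h and 0 target genes between 24 h and 12 h. Leaving out 1 library at a time gave 624 to 2761 genes at 12 h, 1597 to 4047 at 24 h and 222 to 730 between 24 h and 12 h, with the lowest of the first 2 without 0 h replicate 1 and the lowest of the third without 24 h replicate 2. Target genes past the test ran from 1 to 5 at 12 h, 5 to 7 at 24 h and 0 to 1 between 24 h and 12 h, and components from 0 to 4, 2 to 6 and 0 to 1. With 1 library left at 0 h, it was assumed to vary like the other groups. Signs of uncalled genes turned in these fits. At 12 h the log2 change ran from −0.22 to 0.085 for AMOTL2, −0.0092 to 0.32 for IGFBP3, −1.38 to 0.41 for TGFB2, −0.081 to 0.15 for CDC20 and −0.074 to 0.019 for SPTAN1. At 24 h it ran from −0.21 to 0.23 for MYOF, −0.20 to 0.13 for IGFBP3, −0.83 to 0.96 for TGFB2 and −0.0057 to 0.14 for NF2. Between 24 h and 12 h it ran from −0.051 to 0.39 for MYOF, −0.13 to 0.033 for DOCK5, −0.25 to 0.32 for WWTR1 and −0.22 to 0.036 for THBS1. The cause was not tested. Of 1958 gene changes under the alternatives, 1854 kept their side of the threshold, 74 no longer passed and 17 newly passed. Another 13 turned direction by more than their SE in the main fit. Smaller turns of direction among genes that did not pass were counted as unchanged. The total includes the adjusted p of 0.01, which is the main fit read at a stricter threshold.

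The replicate number as a block, between 24 h and 12 h, gave 861 genes past the test in place of 574, with 1 target gene and 1 component in both fits. The block fit used the 12 h and 24 h libraries alone and the main fit all 8 libraries. The change in number therefore does not isolate the block. Deviations of same-numbered libraries at 12 h and 24 h correlated at 0.119, 0.030 and 0.029 across 13464 genes, so the numbers were not taken to pair samples. No paired fit against 0 h was made. The column of 1 of its 2 libraries carries a number that no 0 h label has, so that library was used without a replicate number.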
